A study of Mus musculus with 4 samples.

Results

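The abundant long noncoding RNAs (lncRNAs) of mouse primary myotubes were compared between control cells and cells treated with EDA-A2. A gene was included if GENCODE gives it the biotype lncRNA and if it had at least 300 raw counts in each of the 4 libraries. The genes were thus chosen by their counts in all 4 libraries, so their levels are a description. H19, Meg3, Rian, Mirg, Gm30873, Gm20139 and Gm36634 were left out by name. This left 86 genes of 9657 lncRNA genes and 53647 genes in the count tables, and 88 lncRNA genes met the minimum before the exclusions. Wild-type (WT) myoblasts came from the limb muscles of pups aged 2 to 3 days and were differentiated in low serum. Myotubes were treated after 48 h of differentiation and harvested at 72 h, and 2 control libraries were set against 2 libraries of myotubes that had received 250 ng/mL EDA-A2 during the last 24 h. EDA-A2 is a splice form of ectodysplasin A that binds the receptor EDA2R, a member of the tumour necrosis factor receptor family. Nothing in the labels says that the replicates were separate cultures, so the p-values measure the spread between these libraries, which may be technical.

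A lncRNA is transcribed and usually spliced and polyadenylated like an mRNA, but is not known to code for a protein. Some act in the nucleus: Xist coats and silences an X chromosome, Malat1 sits in nuclear speckles and Neat1 builds paraspeckles. Others are mainly hosts, whose introns or exons release small nucleolar RNAs (snoRNAs, which guide the modification of ribosomal RNA) or microRNAs (miRNAs). In muscle, Lincmd1 shares its locus with the muscle miRNAs miR-206 and miR-133b, and Dubr (also called Dum) is induced by MyoD during myoblast differentiation.

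Counts on genes summed to between 29444155 and 29746863 per library. Pairs outside annotated genes made up 6.68% of both control libraries and 7.40% and 6.84% of EDA-A2 replicates 1 and 2. The 86 lncRNAs took 0.662% and 0.612% of the counts in control replicates 1 and 2, and 0.690% and 0.623% in EDA-A2 replicates 1 and 2. The myotube label was checked against 7 markers, whose summed normalized counts were 587556 and 552684 in control and 417408 and 426192 after EDA-A2, most of it from Acta1 and Myh3, which were lower. The other 5 myotube markers were not called. Their log2 fold changes were -0.36 for Ckm, -0.25 for Ttn, -0.18 for Myog, -0.02 for Des and -0.01 for Mymk. Of the myoblast markers Cdh15 was lower, while Pax7 (log2 fold change -0.17) and Myf5 (-0.24) were not called. Macrophage markers summed to between 61.8 and 89.2 with Adgre1 at 0 or 1 count. Endothelial markers summed to between 29.5 and 36.3. Schwann cell markers summed to between 60.8 and 88.7 with Sox10 at 0. Fibroblast markers summed to 9599 and 5477 in control and 5112 and 6206 after EDA-A2, nearly all from Col1a1, with Lum and Thy1 at 0. Pdgfra had normalized counts of 247 and 288 in control and 302 and 295 after EDA-A2. Dcn had 75.2 and 99.8 in control and 135 and 109 after EDA-A2. Log2 fold changes were -0.46 for Col1a1, 0.48 for Dcn and 0.16 for Pdgfra, and none of them was called. Markers of dividing cells summed to between 19378 and 23059. In bulk RNA, fewer cells of a type and less RNA per cell cannot be told apart.

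Of the 86 lncRNAs, 3 rose after EDA-A2 and 4 fell. A330074K22Rik, AU020206 and Dubr were higher, and Hectd2os, Crnde, Peg13 and Mir503hg were lower, by edgeR's quasi-likelihood test at an adjusted p under 0.05 (Benjamini-Hochberg over the 15173 genes tested). The called share was 8.14%, against 4.57% of all genes tested, 5.67% of all genes with the same count minimum and 2.12% of the other lncRNA genes tested. The median SE was 0.335 for the other lncRNA genes and 0.107 for the 86, so these shares are not like for like. Among the other lncRNA genes, 13 called changes reached 2-fold. By direction, 3.49% of the lncRNAs were called higher and 4.65% lower, against 2.45% and 2.13% of all genes tested. The fitted log2 fold changes of the 86 lncRNAs ran from -0.54 to 0.63, and none of the called ones among the 86 reached a 2-fold change. Their median was -0.01, the median over all genes tested was -0.00, and 39 of the 86 values were positive and 47 negative. The control and EDA-A2 libraries did not overlap for 35 of the 86 lncRNAs (40.7%), against 45.0% of all genes tested. Of the 86, 21 (24.4%) had an unadjusted p under 0.05, against 15.6% of all genes tested and 18.3% of those with the same minimum. The calls depended on single libraries. When either control library was left out, 0 lncRNAs and 0 genes overall were called by edgeR's test, while 19 (without replicate 1) and 20 (without replicate 2) lncRNAs had an unadjusted p under 0.05. Without an EDA-A2 library, the genes called were not all among those called with all 4 libraries. Each library was left out in turn. The log2 fold change ran from 0.538 to 0.716 for A330074K22Rik, 0.367 to 0.472 for AU020206 and 0.225 to 0.347 for Dubr. It ran from -0.655 to -0.346 for Hectd2os, -0.677 to -0.388 for Crnde, -0.608 to -0.276 for Peg13 and -0.618 to -0.207 for Mir503hg. With no filter on low counts 0 lncRNAs were called and 16 had an unadjusted p under 0.05. The control libraries were further apart than the treated ones over the 86 lncRNAs, with an SD of the log2 ratio between replicates of 0.26 for control and 0.17 for EDA-A2.

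**Figure D1:**
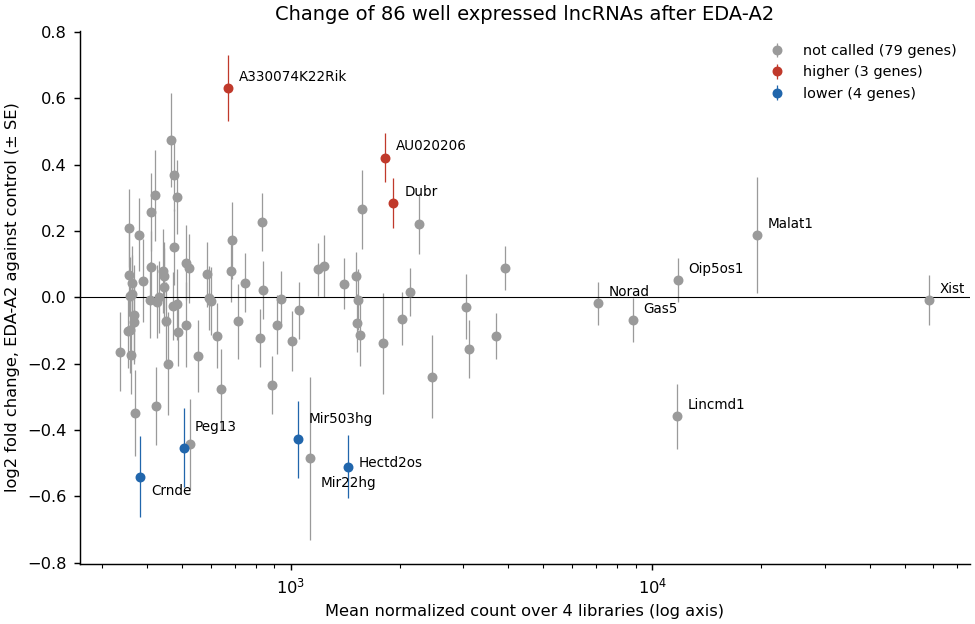
Fitted log2 fold change (EDA-A2 against control, vertical axis, bars show the SE) plotted against mean normalized count over the 4 libraries (horizontal log axis) for each of the 86 lncRNAs. The 3 called higher (red) and 4 called lower (blue) lie between -0.54 and 0.63, and the 79 others (grey) spread around 0.

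The change of largest size was in A330074K22Rik, a lncRNA gene of unassigned function on the minus strand at chr8:120931173-120955074 (coordinates throughout are GRCm39, from GENCODE). Its normalized counts were 502 and 552 in control replicates 1 and 2, and 766 and 865 in EDA-A2 replicates 1 and 2. Both treated libraries lay above both controls. The mean was 527 ± 35.2 (SD, n = 2) in control and 815 ± 70.2 (SD, n = 2) after EDA-A2. This is a log2 fold change of 0.63 with an SE of 0.10 (adjusted p = 0.00144, edgeR's quasi-likelihood test).

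Gse1, which codes for a protein of a corepressor complex, starts on the other strand beside A330074K22Rik. Its normalized counts were 1238 and 1195 in control and 1734 and 1549 after EDA-A2, so its groups did not overlap either. Its log2 fold change was 0.43 with an SE of 0.08 (adjusted p = 0.00512, edgeR's quasi-likelihood test). Between the outermost annotated starts of both genes lie 120 bases, shown here because they separate the one pair of neighbours in which lncRNA and coding gene were both called. They are given 5′ to 3′ on the strand of the lncRNA, chr8:120955075-120955194, with CG dinucleotides in capitals.
A330074K22Rik-Gse1 interval: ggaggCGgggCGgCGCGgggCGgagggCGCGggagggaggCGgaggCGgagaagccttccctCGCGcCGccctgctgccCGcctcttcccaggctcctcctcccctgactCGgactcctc
The interval has a GC content of 78.3% and 14 CG dinucleotides. The canonical Gse1 transcript starts elsewhere, 259950 bases from the canonical start of the lncRNA, and the counts do not separate the starts of Gse1.

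AU020206, a lncRNA of the minus strand at chr7:75398815-75440938 that overlaps Akap13 on the other strand, was the next to rise. Normalized counts were 1521 and 1599 in control and 2014 and 2163 after EDA-A2, without overlap. It rose by a log2 fold change of 0.42 with an SE of 0.07 (adjusted p = 0.00348, edgeR's quasi-likelihood test). Akap13, an anchor protein for protein kinase A, had a log2 fold change of -0.03 (adjusted p = 0.915). A miRNA gene of the annotation, Gm55660, lies inside AU020206. No mature sequence for it was used here.

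Dubr, the MyoD-induced lncRNA on the minus strand at chr16:50530719-50555103, had normalized counts of 1805 and 1659.8 in control and 2054 and 2162 after EDA-A2. Its groups did not overlap. This was the called change of smallest size, with a log2 fold change of 0.28 and an SE of 0.07 (adjusted p = 0.0444, edgeR's quasi-likelihood test). DESeq2 gave Dubr an adjusted p of 0.0761. Its log2 fold change was 0.35 without control replicate 1 and 0.23 without control replicate 2. The nearest coding gene, Ccdc54, lies 118580 bases away and had too few counts to be tested.

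Among the lncRNAs that fell, Hectd2os had the most counts. It lies on the minus strand at chr19:36475152-36683878 and overlaps Hectd2, a ubiquitin ligase gene, on the other strand. Normalized counts were 1873 and 1513 in control and 1161 and 1217 after EDA-A2. Both treated libraries were below both controls, and the log2 fold change was -0.51 with an SE of 0.09 (adjusted p = 0.00499, edgeR's quasi-likelihood test). Hectd2 itself had a log2 fold change of 0.06 (adjusted p = 0.931).

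Crnde, first described in colorectal tumours, lies on the minus strand at chr8:93038763-93084336. It had normalized counts of 499 and 408 in control and 319 and 305 after EDA-A2, without overlap, and a log2 fold change of -0.54 with an SE of 0.12 (adjusted p = 0.0184, edgeR's quasi-likelihood test). Irx5, a homeobox transcription factor gene that starts beside Crnde on the other strand, had normalized counts of 304 and 287 in control and 243 and 198 after EDA-A2. Its log2 fold change of -0.42 did not pass (adjusted p = 0.11, edgeR's quasi-likelihood test). The outermost transcripts of both genes overlap by 84 bases.

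Peg13 is an imprinted, paternally expressed lncRNA inside Trappc9, on the same (minus) strand, at chr15:72677449-72682173. Its normalized counts were 517 and 651 in control and 407 and 447 after EDA-A2. The groups did not overlap, although the controls were far apart. The log2 fold change was -0.45 with an SE of 0.12 (adjusted p = 0.0435, edgeR's quasi-likelihood test), and it was -0.28 without control replicate 2. DESeq2 gave an adjusted p of 0.0748, and with total counts edgeR gave 0.102. Peg13 was called in 3 of 7 alternative fits to all 4 libraries. Trappc9, a subunit of a vesicle tethering complex, had a log2 fold change of -0.11 (adjusted p = 0.598). Pairs from introns of Trappc9 and pairs from Peg13 cannot be told apart by strand.

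Mir503hg, the host of miR-503, miR-322 and miR-351 on the minus strand at chrX:52141990-52146404, had normalized counts of 1371 and 1032 in control and 946 and 839 after EDA-A2. All treated values were below the controls. The log2 fold change was -0.43 with an SE of 0.12 (adjusted p = 0.0485, edgeR's quasi-likelihood test). It was -0.21 without control replicate 1 and -0.62 without control replicate 2. With upper quartile factors edgeR's adjusted p was 0.066, and with total counts it was 0.105. The call was also lost with no filter and with at least 10 counts in every library. It held in 3 of 7 alternative fits to all 4 libraries. Plac1, the nearest coding gene at a distance of 12466 bases, had a log2 fold change of 0.45 on few counts (adjusted p = 0.593). Another lncRNA entry named Mir503hg, below the count minimum, had raw counts of 115 and 58 in control and 63 and 70 after EDA-A2. It was not called, with a log2 fold change of -0.44 and an SE of 0.29 (adjusted p = 0.538, edgeR's quasi-likelihood test). The myotube markers Acta1 and Myh3 and the myoblast marker Cdh15 fell in the same libraries as these 4 lncRNAs, with log2 fold changes of -0.52, -0.57 and -0.47. Their part in the fall of the 4 lncRNAs was not tested.

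**Figure D2:**
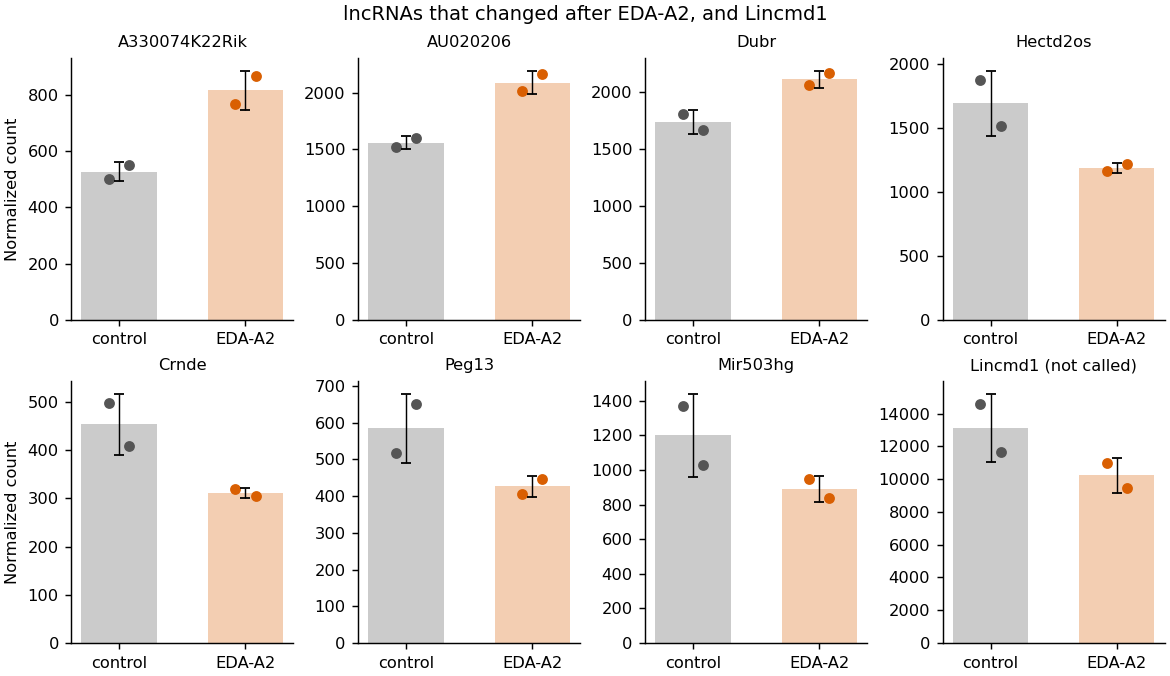
Normalized counts in each library (points) for the 7 called lncRNAs and Lincmd1, in control (grey) and EDA-A2 (orange) myotubes, with bars for the mean and whiskers for the SD of 2 libraries. In all 8 panels the control points and the EDA-A2 points do not overlap, and Lincmd1 was not called.

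The miRNA hosts held a called lncRNA in each direction. Of 10 hosts, which together contain 18 miRNA genes of the annotation, AU020206 rose, Mir503hg fell and 8 were not called, with a median log2 fold change of -0.05. All genes tested were called higher in 2.45% and lower in 2.13%, and with 10 hosts a single gene is a large share. Of the 10 hosts, 4 had an unadjusted p under 0.05, against 15.6% of all genes tested. Mature miRNAs were not measured by these libraries of polyadenylated RNA. Of the 18 miRNA genes, 14 were in the RefSeq table (GRCm38.p6), and the mature sequences of hosts with muscle miRNAs or with a shared seed are printed 5′ to 3′ with the seed, bases 2 to 8, in capitals. The seed is the stretch that pairs with target mRNAs.
mmu-miR-322-5p (Mir503hg): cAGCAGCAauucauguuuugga
mmu-miR-15a-5p (Dleu2): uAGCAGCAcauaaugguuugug
mmu-miR-16-5p (Dleu2): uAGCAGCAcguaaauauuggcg
mmu-miR-503-5p (Mir503hg): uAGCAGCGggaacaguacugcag
mmu-miR-351-5p (Mir503hg): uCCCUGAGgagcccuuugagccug
mmu-miR-125b-5p (Mir100hg): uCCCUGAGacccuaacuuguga
mmu-miR-206-3p (Lincmd1): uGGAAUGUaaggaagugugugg
mmu-miR-133b-3p (Lincmd1): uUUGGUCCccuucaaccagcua
The seed AGCAGCA is shared by 3 of these miRNAs from 2 hosts, Mir503hg and Dleu2. The seed CCCUGAG is shared by 2, from Mir503hg and Mir100hg. The hosts that share a seed had different values. Dleu2 had normalized counts of 365 and 344 in control and 413 and 395 after EDA-A2, without overlap, and a log2 fold change of 0.19 (adjusted p = 0.467, edgeR's quasi-likelihood test). Mir100hg, host of the miR-100, let-7a-2 and miR-125b-1 genes, had normalized counts of 3360 and 2808 in control and 3331 and 2718 after EDA-A2, with a log2 fold change of -0.03. Mir322, Mir503 and Mir351 lie at chrX:52143132-52143226, chrX:52142861-52142931 and chrX:52142132-52142230.

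Lincmd1 lay at the threshold. Its normalized counts were 14615 and 11660 in control and 11010 and 9482 after EDA-A2, both treated libraries below both controls. The log2 fold change was -0.36 with an SE of 0.10 (adjusted p = 0.0511, edgeR's quasi-likelihood test), and with DESeq2's size factors it was called (adjusted p = 0.0495). Leaving out control replicate 1 gave -0.19 and leaving out control replicate 2 gave -0.51. Leaving out EDA-A2 replicate 1 gave -0.47, a call (adjusted p = 0.00297, edgeR's quasi-likelihood test). Mir206 and Mir133b lie at chr1:20749234-20749306 and chr1:20752993-20753111, within its span.

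Mir22hg, the host of miR-22, had normalized counts of 1853 and 773 in control and 967 and 908 after EDA-A2. A single control library held the high value, and the treated libraries lay between the controls. The log2 fold change was -0.48 with an SE of 0.25 (adjusted p = 0.38, edgeR's quasi-likelihood test), and it was 0.28 without control replicate 1. Dnm3os, the host of miR-199a and miR-214 that lies opposite the dynamin gene Dnm3, had a log2 fold change of 0.17 (adjusted p = 0.548). Dnm3 had normalized counts of 97.9 and 117 in control and 190.2 and 196 after EDA-A2, and was called higher (log2 fold change 0.84, adjusted p = 0.00794, edgeR's quasi-likelihood test).

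**Figure D3:**
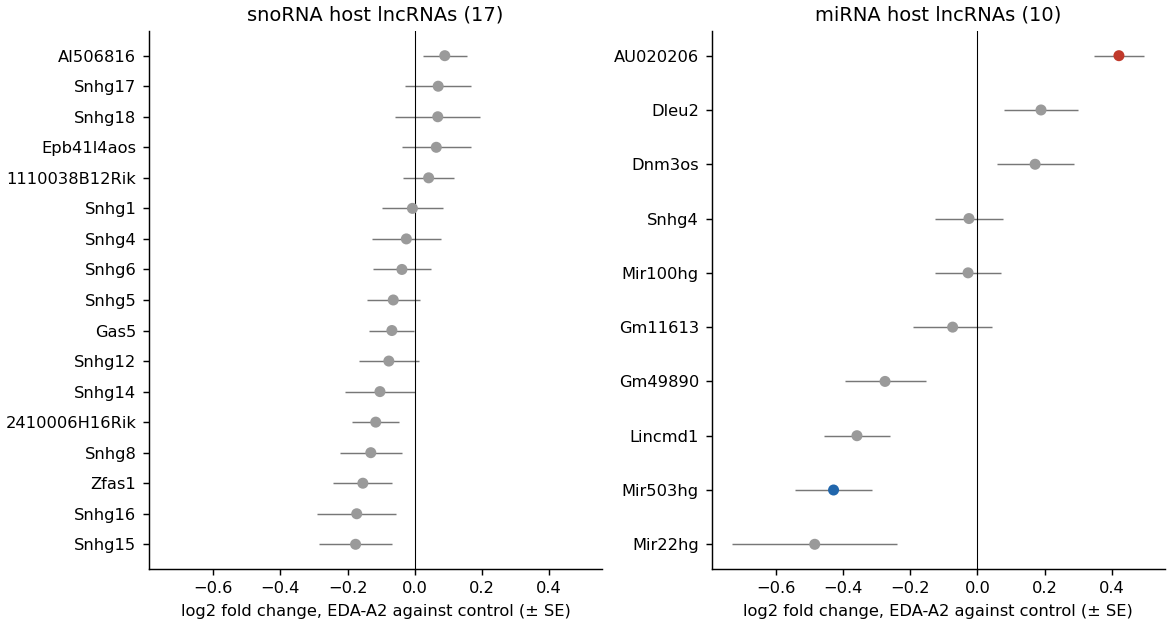
Fitted log2 fold change with its SE for the 17 snoRNA host lncRNAs (left) and the 10 miRNA host lncRNAs (right). The snoRNA hosts lie between -0.18 and 0.09 with none called, while the miRNA hosts lie between -0.48 and 0.42 with AU020206 called higher (red) and Mir503hg lower (blue).

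Of the 17 snoRNA hosts 0 were called, which is near the 4.57% called of all genes tested. These lncRNAs hold 255 snoRNA genes of the annotation on their own strand, most of them inside Snhg14. Some snoRNAs, such as Snord80 and Snora16a, are entered under separate identifiers and counted separately. Many hosts begin with an oligopyrimidine stretch, as mRNAs for ribosomal proteins do, and are degraded by nonsense-mediated decay once their introns are removed. Their log2 fold changes ran from -0.18 to 0.09 with SEs of 0.07 to 0.13. The median was -0.06, with 5 positive and 12 negative values, against -0.00 over all genes tested. By edgeR's test 0 hosts had an unadjusted p under 0.05, against 15.6% of all genes tested, and DESeq2 called 0.

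Gas5 holds 10 snoRNA genes of the annotation, of which Snord80 is entered under separate identifiers at overlapping positions. Known to accumulate when growth stops, Gas5 had normalized counts of 9296 and 8804 in control and 8572 and 8691 after EDA-A2. The treated values were slightly below the controls, with a log2 fold change of -0.07 and an SE of 0.07. Zfas1, the host of 3 snoRNA genes beside Znfx1, had 3582 and 2954 in control and 2801 and 3069 after EDA-A2, with overlap and a log2 fold change of -0.15. Log2 fold changes were -0.18 for Snhg15, -0.17 for Snhg16 and -0.13 for Snhg8, with adjusted p-values of 0.497, 0.559 and 0.571 (edgeR's quasi-likelihood test). The proteins that package snoRNAs were described from a list of 15 genes, with a median log2 fold change of -0.04. By edgeR 0 were called, which is near the 4.57% of all genes tested, and DESeq2 called 0. An unadjusted p under 0.05 was found for 2 genes of this list, against 15.6% of all genes tested. The values of smallest p in it were those of Nop10, a protein of H/ACA particles, at -0.23 (adjusted p = 0.188, edgeR's quasi-likelihood test), Fbl, the methyltransferase of C/D particles, at -0.21, and Gar1, also of H/ACA particles, at -0.23.

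The 10 most abundant lncRNAs took 68.4% of the normalized counts of all 86. Of them 0 were called, which is near the 4.57% of all genes tested. Their log2 fold changes ran from -0.36, for Lincmd1, to 0.19, for Malat1. By rank they were Xist, Malat1, Oip5os1, Lincmd1, Gas5, Norad, AI506816, 2410006H16Rik, Zfas1 and Mir100hg. Means over the 4 libraries ran from 337 to 58437 over the 86 lncRNAs, with a median of 612, and 30 reached 1000.

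Xist, the RNA of the inactive X chromosome, had normalized counts of 61844 and 55348 in control and 59105 and 57449 after EDA-A2. The groups overlapped and the log2 fold change was -0.01 with an SE of 0.07. Xist took between 29.7% and 31.5% of the counts of the 86 lncRNAs in each library. The Y-linked genes Ddx3y, Kdm5d, Uty and Eif2s3y had between 0 and 2 counts in each library. The labels do not give the sex of the pups.

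Malat1 was the lncRNA in which a single treated library stood apart. Its normalized counts were 18656 and 17758 in control, 26855 in EDA-A2 replicate 1 and 14629 in EDA-A2 replicate 2, which places the treated libraries on either side of the controls. Its log2 fold change was 0.19 with an SE of 0.17 (adjusted p = 0.701, edgeR's quasi-likelihood test). Without EDA-A2 replicate 2 it was 0.56 (adjusted p = 0.00052), and without EDA-A2 replicate 1 it was -0.32. EDA-A2 replicate 1 also had the highest share of pairs outside annotated genes, 7.40%, and the part of that share in the Malat1 value was not tested. Neat1 had 2229 and 1549 in control and 2017 and 1412 after EDA-A2, so that replicate 1 was the higher library in both conditions.

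Of the other abundant lncRNAs, Oip5os1, also called Cyrano, had normalized counts of 11442 and 11651 in control and 12099 and 11841 after EDA-A2, with a log2 fold change of 0.05. Norad, a sponge for Pumilio proteins, had 7129.7 and 7121 in control and 6919 and 7155 after EDA-A2, with a log2 fold change of -0.02. Over 51.3% of the canonical Norad transcript a near copy, Gm7292, matched at 97% identity or more. Pairs that do not map uniquely are set aside, which may lower the Norad count. AI506816 and 2410006H16Rik, both snoRNA hosts, had log2 fold changes of 0.09 and -0.12.

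**Figure D4:**
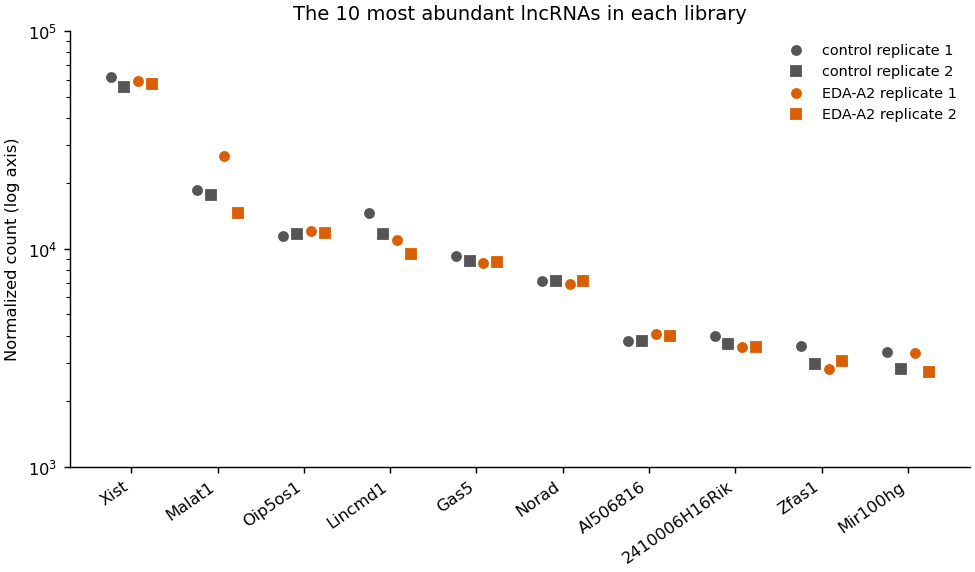
Normalized counts (vertical log axis) of the 10 most abundant lncRNAs in control replicates 1 and 2 (grey) and EDA-A2 replicates 1 and 2 (orange), in order of their mean. Malat1 spans 14629 to 26855 within the EDA-A2 libraries, and both EDA-A2 values of Lincmd1 are below both control values.

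Levels per length depended on which length was used. Canonical transcripts of the 86 ranged from 373 to 22397 bases with a median of 1392, and 15 had a single exon. HTSeq counts pairs over all exons of a gene, here in an annotation release that is not given. Over all exons in GENCODE, Xist (mean normalized count of 3227 per kilobase) and Malat1 (2469) were highest, followed by Lincmd1 (2106) and Gas5 (2091). Divided by the canonical transcript alone, Lincmd1 had 22441 per kilobase, Gas5 13215, Xist 3256 and Malat1 2470. Of these lengths, Lincmd1 and Gas5 rank above Xist only on the canonical one, which is far shorter than all their GENCODE exons together. For 3 of the 86, Norad included, at least 50% of the canonical transcript was also found in transcripts of other genes.

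Several lncRNAs without an assigned function did not overlap between the groups and were not called. Gm38403 had normalized counts of 428 and 399 in control and 563 and 504 after EDA-A2, without overlap, and a log2 fold change of 0.37 (adjusted p = 0.0681, edgeR's quasi-likelihood test). G930009F23Rik had 459.5 and 319 in control and 573 and 507 after EDA-A2. Its groups did not overlap either, with a log2 fold change of 0.47 (adjusted p = 0.0807), but the value was 0.76 without control replicate 1 and 0.23 without control replicate 2. Gm48226, which starts beside the gephyrin gene Gphn, had 464 and 363 in control and 318 and 331 after EDA-A2, all treated values lower. It had a log2 fold change of -0.35 (adjusted p = 0.17), which became -0.16 without control replicate 1 and -0.51 without control replicate 2. Gphn was at -0.04.

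In other lncRNAs a single control library set the value, as in Mir22hg. 4930447F24Rik had 1681 and 1177 in control and 1704 and 1731 after EDA-A2, and its log2 fold change was 0.27 with both controls and 0.03 without control replicate 2. Gm10076 had 3176 and 2139 in control and 2192 and 2312 after EDA-A2. Its log2 fold change of -0.24 became 0.08 without control replicate 1, and 35.2% of its canonical transcript matched the ribosomal protein gene Rpl41. Pairs that do not map uniquely are set aside, which may lower the Gm10076 count. Gm49890, the host of miR-31, had 793 and 612 in control and 621 and 539.5 after EDA-A2, with overlap and a log2 fold change of -0.28 (adjusted p = 0.276, edgeR's quasi-likelihood test). Its value was -0.07 without control replicate 1, -0.45 without control replicate 2 and -0.18 when EDA-A2 replicate 2 was left out.

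Some lncRNAs hardly differed. Firre, an X-linked RNA of the nuclear matrix, had 909 and 973 in control and 953 and 924 after EDA-A2, with a log2 fold change of -0.00 and an SE of 0.08. Brip1os had 2038 and 2202 in control and 2146 and 2145 after EDA-A2, with a log2 fold change of 0.02 and an SE of 0.07. The 86 genes lie on 20 chromosomes, 4 of them on the X chromosome.

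Other nuclear and muscle lncRNAs were measured without a call. Pvt1, a lncRNA beside Myc, had normalized counts of 778 and 753 in control and 861 and 933 after EDA-A2, without overlap, and a log2 fold change of 0.23 (adjusted p = 0.192, edgeR's quasi-likelihood test). Airn, the imprinted transcript that silences Igf2r in cis, was at -0.08 (adjusted p = 0.751). Trp53cor1, a p53-induced lncRNA, was at 0.03 and Chaserr, which restrains its neighbour Chd2, at -0.02, with adjusted p-values of 0.947 and 0.96.

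Proteins that work with these RNAs or degrade them were described from 4 more lists, and none of their genes was called by edgeR's test or by DESeq2. For short lists, 0 called is near the 4.57% that edgeR called of all genes tested. An unadjusted p under 0.05 was found for 15.6% of all genes tested. Of 13 paraspeckle genes the median log2 fold change was 0.02, and 1 had an unadjusted p under 0.05. The values of smallest p were -0.18 for Rbm3, 0.16 for Cpsf6 and 0.10 for Nudt21. Of 14 genes of nonsense-mediated decay the median was 0.02, and 1 had an unadjusted p under 0.05. That gene was Upf2, which bridges the decay factor Upf1 and the exon junction complex, at 0.27 (adjusted p = 0.0629, edgeR's quasi-likelihood test). Upf3b was at 0.18 and Eif4a3 at -0.10.

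Of 20 genes of the nuclear exosome and its adaptors, which degrade nuclear RNA, 19 were tested. Their median log2 fold change was -0.00, and 0 had an unadjusted p under 0.05, against 15.6% of all genes tested. Exosc9 was at 0.16, Zcchc8 at 0.14 and Exosc4 at -0.14. Of 8 partners of Xist the median was -0.00 and 1 had an unadjusted p under 0.05. The values of smallest p were -0.18 for Lbr, which tethers the inactive X chromosome to the nuclear lamina, 0.10 for Ciz1 and 0.08 for Smchd1.

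Many of these lncRNAs have an annotated start near that of a coding gene. Of the 86, 19 had an outermost annotated start within 1 kb of a coding gene's outermost start on the other strand. Of the rest, 31 overlapped a coding gene on the other strand, 6 overlapped one on the same strand and 30 lay between genes. Among those 19, some canonical starts lay further apart, by 259950 bases for A330074K22Rik and Gse1 and by 9076 for Snhg1 and Slc3a2. They lay 1898 bases apart for Crnde and Irx5, 1326 for Gm29773 and Acta1, and 1098 for 5031425E22Rik and Kmt2e. In the first class 18 neighbours were tested. In 14 of these 18 pairs the log2 fold changes of lncRNA and neighbour had the same sign, compared with 17 of 29, 4 of 6 and 14 of 25 pairs in the other classes. A330074K22Rik and Gse1 were the one pair called together. A gene and its neighbour are measured in the same libraries, so their values share library errors.

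The actin genes of striated muscle both start beside a lncRNA. Actc1, cardiac actin, had normalized counts of 75318 and 71133 in control and 51095 and 54869 after EDA-A2 and fell by 0.47 on the log2 scale (adjusted p = 0.00129, edgeR's quasi-likelihood test). Actc1dt, the divergent lncRNA beside it, had 705 and 505 in control and 470.5 and 419.6 after EDA-A2. Its groups did not overlap, and its log2 fold change of -0.44 did not pass (adjusted p = 0.0875). Leaving out control replicate 1 gave -0.18, and leaving out control replicate 2 gave -0.66. It was called at -0.53 when EDA-A2 replicate 1 was left out (adjusted p = 0.0458). Acta1, skeletal actin, had 186033 and 173942 in control and 119001 and 132306 after EDA-A2 and fell by 0.52 (adjusted p = 0.00104, edgeR's quasi-likelihood test). The outermost transcripts of Gm29773 and Acta1 overlap on opposite strands, and their canonical starts lie 1326 bases apart. Gm29773 had 961 and 978 in control and 846 and 769.5 after EDA-A2. It did not overlap between groups and had a log2 fold change of -0.26 (adjusted p = 0.113).

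Snhg18 starts beside Sema5a. Sema5a, a semaphorin gene, fell by 0.50 (adjusted p = 0.00331, edgeR's quasi-likelihood test), while Snhg18 was at 0.07 with an SE of 0.13 (adjusted p = 0.876). The sign of Snhg18 was not fixed by these libraries, since it was -0.06 without control replicate 1 and 0.21 without control replicate 2. These pairs overlap or adjoin on opposite strands, so the strand of the counting was checked on the tables. Of 266 genes whose every exonic base lies under exons of the other strand, 98 had counts and 14 had at least 10 in every library. Counting without strand leaves such genes at 0, so the deposited counts used the strand.

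**Figure D5:**
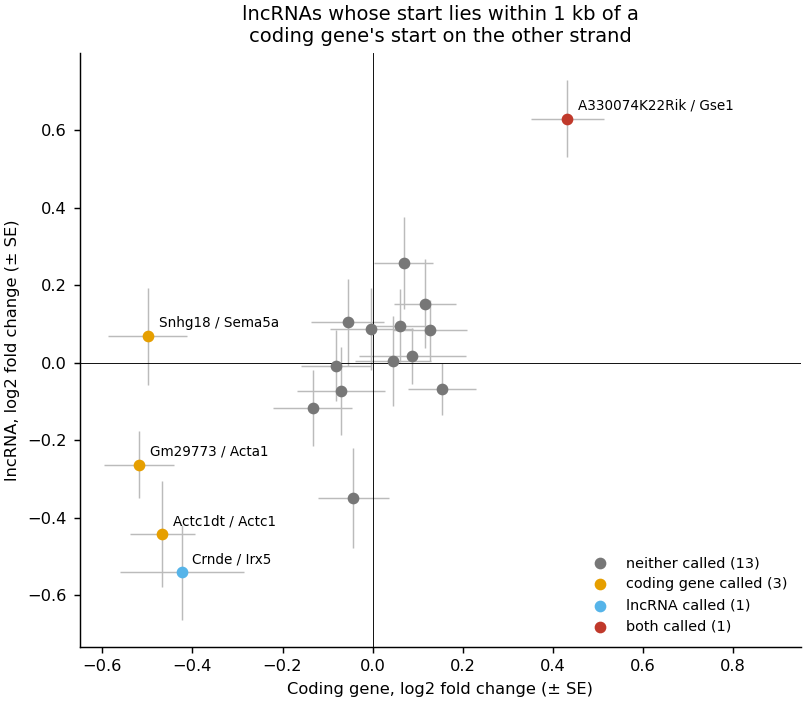
Log2 fold change of each lncRNA (vertical axis) against that of its coding neighbour (horizontal axis), with SEs, for 18 pairs. In each pair the outermost annotated starts lie within 1 kb on opposite strands. In 1 pair both genes were called (A330074K22Rik and Gse1), in 3 the coding gene, in 1 the lncRNA and in 13 neither.

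Promoters were searched for the κB consensus, the site bound by NFκB, which TNF family receptors can activate. The window ran from 250 bases before to 50 bases after the canonical start and both strands were read. The consensus was found in 2 of the 86 windows (2.33%), those of Gt(ROSA)26Sor and 9230114K14Rik, and in 4.85% of the windows of all genes tested. None of the windows of the 7 called lncRNAs held it. These letters in this window are a description and do not say whether NFκB binds.

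The minimum of 300 counts in every library decides which lncRNAs could be described. Just inside it were Snhg18, Gt(ROSA)26Sor and Gm16534, with lowest counts of 305, 307 and 309. Just outside were Gm1600, 1600020E01Rik and Bc1, with lowest counts of 299, 296 and 295. In all, 34 lncRNA genes reached 300 in some libraries but not in every one. Of these, 30 were not called, Gm37565 and Gm16576 were called higher, and 2310020H05Rik and 2310043M15Rik lower. Raw counts of Gm37565 were 107 and 102 in control and 350 and 271 after EDA-A2, with a log2 fold change of 1.52. Those of 2310043M15Rik were 544 and 519 in control and 295 and 298 after EDA-A2, with a log2 fold change of -0.90. Both changes are larger in size than any among the 86. The minimum removes a gene that falls below it in 1 condition, so large changes near it are not described here. These 4 genes were named after their values were seen. Of the genes left out by name, H19 and Gm20139 met the minimum. H19, by far the most abundant, was not called, and Gm20139 was called higher with a log2 fold change of 0.92, so that keeping them gives 4 lncRNAs called higher and 4 lower of 88.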

How the data were processed

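RNA of mouse primary myotubes (2 control and 2 EDA-A2 libraries, TruSeq Stranded mRNA kit) was sequenced. Per the submitters' processing notes, FastQC 0.11.9, MultiQC 1.12, Trim Galore 0.6.5, STAR 2.7.3a and HTSeq 0.11.1 were used with GRCm39. The authors deposited whole-number counts per Ensembl gene, 1 table per library, not normalized or pooled. The annotation release and strand option are not given in the sources used here. Pairs that do not map uniquely (4.56% to 4.76%) are set aside by HTSeq, which lowers genes with near copies. Those and other HTSeq summary lines (6.68% to 7.40% outside genes and 0.946% to 0.986% ambiguous) entered neither the library sizes nor the tests.

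Biotypes and coordinates came from GENCODE (GRCm39), which matched 52610 of 53647 genes. The lncRNAs and the gene lists were chosen with earlier results of these data known. Counts were fitted over all genes with edgeR 4.0.16 in R 4.3.3 (TMM, filterByExpr at a count of 10 and a total of 15, glmQLFit and glmQLFTest, condition as the only term), with Benjamini-Hochberg adjustment over all genes tested and a threshold of 0.05. Normalized counts are counts divided by each library's size times its TMM factor (0.972 to 1.026) and multiplied by the mean of these sizes over libraries. The SE was taken as the size of the log2 fold change over the root of the F statistic. Replicates differed by more than counting noise (mean chi-square per gene 9.33 for control and 4.45 for EDA-A2), and the common dispersion was 0.00384. Near copies were searched with blastn 2.17.0. The steps were tested on simulated counts for the same comparison in which 200 genes had a log2 change of 1. Of them edgeR called 168, with 20 unchanged genes called of 15011 tested. Set against the genes called, those 20 are a larger share than the threshold of 0.05 allows for. Detection of changes under 1 in size, such as those of the 86 lncRNAs (-0.54 to 0.63), was not tested.

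Genes were named by rule: each called lncRNA with its coding neighbour, the 10 most abundant, up to 5 in each of the lists of snoRNA hosts, miRNA hosts, nuclear and muscle lncRNAs by smallest p, the 3 on either side of the count minimum, and up to 3 in each list of partner proteins. Other genes in the text were named after their values were seen. Alternatives were DESeq2 1.42.0 (its size factors, and its Wald test), upper quartile factors, total counts, other filters, a replicate block, other count minimums and leaving out each library.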

Additional observations from a re-analysis of the deposited data

Results flagged for a closer look

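Counts outside the comparisons of the report were looked at for lncRNA-like signal. Among the identifiers that the annotation used here did not hold, 1 gene (ENSMUSG00000044068) had at least 300 counts in every library, with 398 and 390.0 in control and 361 and 381 after EDA-A2. It has no biotype here, so it could not be placed among the lncRNAs, and it was not called (log2 fold change -0.14, adjusted p = 0.623, edgeR's quasi-likelihood test).

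The share of pairs outside annotated genes, which the tests do not use, was 7.40% in EDA-A2 replicate 1 and 6.84% in EDA-A2 replicate 2, above the 6.68% of both control libraries. EDA-A2 replicate 1 was also the library with the highest Malat1 count, and the relation was not tested.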

How the results depend on the processing

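The number of lncRNAs called higher was 3 and called lower 4, and no called value changed its direction under any of the alternatives run. Called higher numbered 0 with no filter beyond 1 count and 5 with the replicate block. Called lower numbered 2 with upper quartile factors, 2 with total counts, 0 with no filter and 1 with a minimum of 1000 raw counts. The cause of the loss with no filter was not tested, and over all genes 64 higher and 22 lower calls remained there against 371 and 323. A minimum of 100 raw counts gave 9 higher and 7 lower of 246 genes. Leaving out single libraries left 1 library in a condition, and the genes called there were not all among the 7. There the lone library of a condition was assumed to vary like the other condition. DESeq2's Wald test called 5 of the 7, without Dubr and Peg13.

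The median log2 fold change of the 86 lncRNAs moved from -0.01 to 0.0473 with total counts, under which the median of all genes was 0.0526, and lay between -0.0336 and 0.0435 when single libraries were left out. With total counts the medians of the other lists were -0.00853 for the snoRNA hosts, 0.0753 for nonsense-mediated decay, 0.0532 for the nuclear exosome and 0.0524 for the Xist partners, and 1 decay gene, Upf2, was called higher, as it was with the replicate block (1 gene). Leaving out single libraries gave medians of -0.134 to 0.0869 for the snoRNA packaging proteins, -0.0468 to 0.0751 for the paraspeckle genes, -0.0263 to 0.0679 for the exosome and -0.0436 to 0.0407 for the Xist partners.

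The replicate numbers do not pair the libraries by any label. Deviations of same-numbered libraries correlated at 0.06 over all genes and 0.26 over the 86 lncRNAs. With the replicate block, 5 lncRNAs were called higher and 6 lower, all 7 of the calls without the block included. Calls rose over all genes too, to 537 higher and 529 lower with the block, against 371 and 323 without it. The lncRNAs gained were Gm38403 (adjusted p = 0.028, edgeR's test) and G930009F23Rik (0.00624), higher, and Lincmd1 (0.00198) and Actc1dt (0.0104), lower. Of single-gene values recomputed, 1892 of 1958 stayed on their side of the threshold, 54 lost a call and 12 gained one. With 2 libraries per condition and a median SE of 0.11, no change under 0.28 in size was called among the 86.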
